A study of Mus musculus with 13 samples.

Results

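The genes described here encode the translation initiation factors (eIF) and elongation factors (eEF) of the mouse, with the enzymes that carry their names. The members were every gene in the table of normalized counts whose symbol starts with Eif or Eef followed by a number, without the Eif4ebp genes, which encode inhibitors of eIF4E. Of 69 such symbols, 3 Eif4ebp genes were left out and 0 were pseudogenes, which left 66 members among 21868 genes, 52 of them Eif and 14 Eef. Gastrocnemius muscle was profiled by RNA-seq in 13 male mice, C57BL/6 in the labels and C57BL/6N in the study's account of its RNA-seq data, which were 7 weeks old on arrival. After 1 week of acclimatization, a diet with 60 kcal% fat was given for 15 to 17 weeks in all groups and was followed by standard chow during a 3-week treatment. Vehicle mice 1 to 5 received PBS and a placebo (n = 5), semaglutide mice 13 to 17 received 30 nM/kg/day of semaglutide by intraperitoneal injection and a placebo (n = 5), and mice 19, 21 and 22 received the same semaglutide and drank water that held a ketone ester at 0.114 g/mL (n = 3). Semaglutide is an agonist of the GLP-1 receptor that lowers food intake. In the study's account, this ketone ester is split in the gut, and its products are then converted to the ketone body β-hydroxybutyrate. No group received the ketone ester without semaglutide, and what the placebo was made of is not given in the labels.

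Translation starts when eIF2, carrying the initiator transfer RNA and GTP, joins the small ribosomal subunit together with eIF1, eIF1A and the many-subunit eIF3. The eIF4 factors bind the cap of the messenger RNA and unwind its leader, eIF5 and eIF5B act at the start codon and at the joining of the large subunit, and eEF1A, eEF1B and eEF2 then drive each round of elongation. eIF2B recharges eIF2 with GTP, and the 4 eIF2α kinases, which respond to stress, block that step. Skeletal muscle fibres replace eEF1A1 by its paralog eEF1A2 as they mature. The question of the comparisons was how the levels of these messenger RNAs differed between vehicle and semaglutide-treated mice, and between semaglutide-treated mice with and without the ketone ester.

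Many messenger RNAs of the translation machinery begin with a C followed by a run of pyrimidines, the 5′ terminal oligopyrimidine tract, through which mTORC1 signalling controls their translation. The bases around the annotated start are therefore shown for the members that rose in semaglutide-treated mice, by the test described below, and had such a tract, which was searched as a C within 5 bases of the start followed by at least 4 C or T. RefSeq promoters (GRCm38.p6) were matched for 52 of the 66 members, with 67 starts in all. Each window runs from 10 bases before the start to 20 bases from it, and the capitals mark the stretch that met this rule. Whether transcripts in this muscle begin at the annotated starts was not tested. A marked stretch therefore need not hold the first bases of a messenger RNA.
Eif3f, at chr7:108934405-108934434 on the plus strand: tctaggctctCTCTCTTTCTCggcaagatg
Eef1a1, at chr9:78481705-78481734 on the minus strand: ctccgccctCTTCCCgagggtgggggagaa
Eif3b, at chr5:140419295-140419324 on the plus strand: ggcgcgcggtgaCTTCTgggagtcggaagc
Eif3l, at chr15:79075213-79075242 on the plus strand: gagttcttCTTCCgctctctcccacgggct
Eif2b5, at chr16:20498807-20498836 on the plus strand: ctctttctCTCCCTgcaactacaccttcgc
For contrast, Eef2 and Eef1b2 are shown, which also rose but had no tract by this rule at the RefSeq start. The rule searches only near the annotated start, so a run further downstream, such as the ctctt ending the Eef2 window, is not counted. Absence by this rule does not show that a messenger RNA lacks a tract.
Eef2, at chr10:81176621-81176650 on the plus strand: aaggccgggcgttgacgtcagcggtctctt
Eef1b2, at chr1:63176821-63176850 on the plus strand: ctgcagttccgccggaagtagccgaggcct
A tract was present at 16 of the 67 member starts (23.9%), at 5 of the 22 starts of members that rose (22.7%) and at 24.4% of the 45 starts of tested members that did not rise. Over the 12410 starts of all genes tested the share was 19.7%, and over all 32851 promoters it was 18.3%.

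The window from 250 bases before to 50 bases after the start was also searched on both strands for 3 short motifs, each counted on its own whether or not it overlapped another. The letters CACGTG are the core bound by Myc and related factors. They were present in 23.9% of the member promoters and in 9.86% of those of all genes tested. Among members that rose, 7 of 22 promoters held them (31.8%). Among tested members that did not rise, 9 of 45 did (20%). The members that rose and held CACGTG were Eef1akmt4, Eef1aknmt, Eef2, Eif1b, Eif3f, Eif3k and Eif4a1. Those that did not rise and held it were Eef2k, Eif3a, Eif4e, Eif4g1, Eif4h, Eif5a and Eif5a2. The letters CCGGAAG, the core bound by ETS factors, were present in 28.4% of the member promoters and in 16.9% of those of all genes tested. The share was 22.7% in members that rose and 31.1% in tested members that did not rise. The letters TGATGNAA, the core of ATF4 and C/EBP composite sites, were present in 2 member promoters (2.99%), those of Eef2k and Eif2s3x, and in 2.22% of those of all genes tested. Over all promoters the 3 shares were 7.15%, 8.86% and 3.97% in the same order.

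Reads assigned to genes ranged from 15319471 to 23498162 per mouse, and all 13 libraries carried 1 batch label. Mouse 13 stood apart from the other semaglutide-treated mice, with -9.12 on the first principal component of all genes tested (38.1% of the variance), where the others had 31.8 to 52.5 and vehicle mice -24.5 to -12.9. Mouse 16 had a summed normalized count of 11160 over 7 adipocyte markers, against 151 to 1234 in the other semaglutide-treated mice, and the lowest normalized total. All 10 muscle fibre markers were above 0 in every mouse, and their summed normalized count was 1710962 to 2833610 in semaglutide-treated mice, 2523980 to 3040791 in vehicle mice and 3166769 to 3650317 with the ketone ester. Markers of some other cell types differed between the groups too. Of 5 fibroblast markers, 4 fell with semaglutide and 3 were higher with the ketone ester than with semaglutide alone, and their sum was 4625 to 6371 in semaglutide-treated, 5120 to 11723 in vehicle and 6644 to 11019 in ketone ester mice. The sum over 5 red blood cell genes was 50.5 to 213 in mice 14, 16 and 17, but 3148 in mouse 13, 1505 in mouse 15, 1356 to 2291 in vehicle mice and 2849 to 5558 with the ketone ester, where all 5 were higher than with semaglutide alone. Of 5 endothelial markers, 3 were higher with the ketone ester than with semaglutide alone. Of 6 satellite cell and regenerating fibre markers, 1 rose and 2 fell with semaglutide, and 2 were higher and 1 was lower with the ketone ester than with semaglutide alone, with sums of 3316 to 5230 in semaglutide-treated, 4278 to 5348 in vehicle and 5797 to 6275 in ketone ester mice. Of the 10 muscle fibre markers, 2 rose and 1 fell with semaglutide, and 3 were higher and 1 was lower with the ketone ester than with semaglutide alone. None of 7 adipocyte, 5 macrophage and leukocyte and 4 Schwann cell markers tested was called by limma in any comparison. Over all genes tested, 12.5% rose and 13.9% fell with semaglutide. Between the semaglutide groups, 10% were higher and 10.7% lower with the ketone ester. Counts of 1 in these marker lists are near those shares. The part of these differences in the results below was not tested, and in a whole muscle fewer cells of a type and less RNA per cell cannot be told apart.

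Of the 66 members, 64 had a mean normalized count of at least 10 and were tested, 51 Eif and 13 Eef. Eef1akmt3, a lysine methyltransferase of eEF1A, was listed at 0 in every mouse but mouse 17 (0.746), and Eif4e1b, a germ-cell paralog of eIF4E, ranged from 0 to 7.76. Per kilobase of exon, the highest mean levels in vehicle mice were those of Eef1a2 with 13380 ± 525 (SD, n = 5), Eef2 with 8468 ± 554, Eif1 with 4393 ± 103 and Eif5a with 2339 ± 160 normalized counts per kilobase. Eif5a2, with a mean of 5.81 per kilobase, and Eef1akmt4, with 19.3, were low.

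In semaglutide-treated against vehicle mice, 27 of the 64 tested members rose and 0 fell (limma, adjusted p under 0.05 over all 12303 genes tested). That is 42.2% of the members, against 12.5% of all genes tested that rose and 13.9% that fell. The log2 difference was above 0 for 53 members and below 0 for 11, where 49.7% of all genes tested were above 0, and its median was 0.27 over the members and -0.003 over all genes tested. At an unadjusted p under 0.05, 35 members were higher and 1 was lower (38.9% of all genes tested in either direction). On recovered reads, edgeR called 30 higher and 0 lower, against 14.4% and 12.5% of all genes tested. DESeq2 called 31 higher and 1 lower, Eif2ak2, against 15% and 14.1% of all genes tested. The lowest semaglutide-treated mouse lay above the highest vehicle mouse for 14 members, against 7.22% of all genes tested, and the reverse held for 0 members, against 7.45%. The members that rose covered most roles, with 11 of 14 eIF3 subunits, 6 of 13 factors of start codon recognition, 2 of 5 eIF2B subunits, 2 of 12 eIF4 factors, eIF6, and 5 of 13 elongation factor genes.

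Between semaglutide-treated mice with and without the ketone ester, 24 of the 64 members were lower with the ketone ester and 0 were higher by limma. That is 37.5% of the members, against 10.7% of all genes tested that were lower and 10% that were higher. The difference was below 0 for 54 members, where 50% of all genes tested were above 0, with a median of -0.27 over the members and -0.00024 over all genes tested. At an unadjusted p under 0.05, 33 were lower and 2 were higher (34.8% of all genes tested in either direction). With edgeR, 25 were called lower and 0 higher, against 11% and 9.77% of all genes tested. DESeq2 called 30 lower and 0 higher, against 12.8% and 11% of all genes tested. The highest ketone ester mouse lay below the lowest semaglutide-treated mouse for 15 members, against 10.2% of all genes tested, and the reverse held for 0 members, against 9.96%. The count of 24 fell to 9 without ketone ester mouse 21, to 9 without mouse 22, to 12 without semaglutide mouse 17 and to 13 without mouse 15, and it was 7 when vehicle mice were kept out of the fit, where 5.02% of all genes tested were lower. Over all genes the share that was lower came to 5.19% without mouse 21, 4.87% without mouse 22, 7.59% without mouse 17 and 7.91% without mouse 15. The 5 mice on semaglutide alone enter both comparisons, so a high value in that group raises the difference in the first and lowers it in the second. Side by side, 22 members (34.4%) were called higher in the first and lower in the second comparison, as were 7.49% of all genes tested, while the opposite held for 0 members and 7.97% of all genes tested. Of the other members, 5 were called in the first alone (Eef1a1, Eif1a, Eif1b, Eif2d and Eif3k), 2 in the second alone (Eif4a3 and Eif5b) and 35 in neither.

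Between ketone ester and vehicle mice, limma called 0 members higher and 0 lower, where 0.0975% of all genes tested were higher and 0.268% lower. At an unadjusted p under 0.05, 4 were higher and 2 were lower (10.4% of all genes tested in either direction), and edgeR and DESeq2 called 0 in either direction. Over all genes tested, edgeR called 0.138% higher and 0.228% lower, and DESeq2 0.553% and 0.845%. The lowest adjusted p was 0.224, for Eif5. A p that misses the threshold does not show that these levels were the same, and 6 members were higher in every ketone ester mouse than in any vehicle mouse (Eef1a2, Eef1aknmt, Eef1b2, Eif1b, Eif2d and Eif4e3), against 5.45% of all genes tested. Eif5 was lower in every ketone ester mouse than in any vehicle mouse, against 5.88%. Over the 3 groups together, limma's F test called 26 of the 64 tested members, a larger share than the 26.5% of all genes tested. Without mouse 17 it called 17 members, and the share of all genes is not given for that fit.

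**Figure D1:**
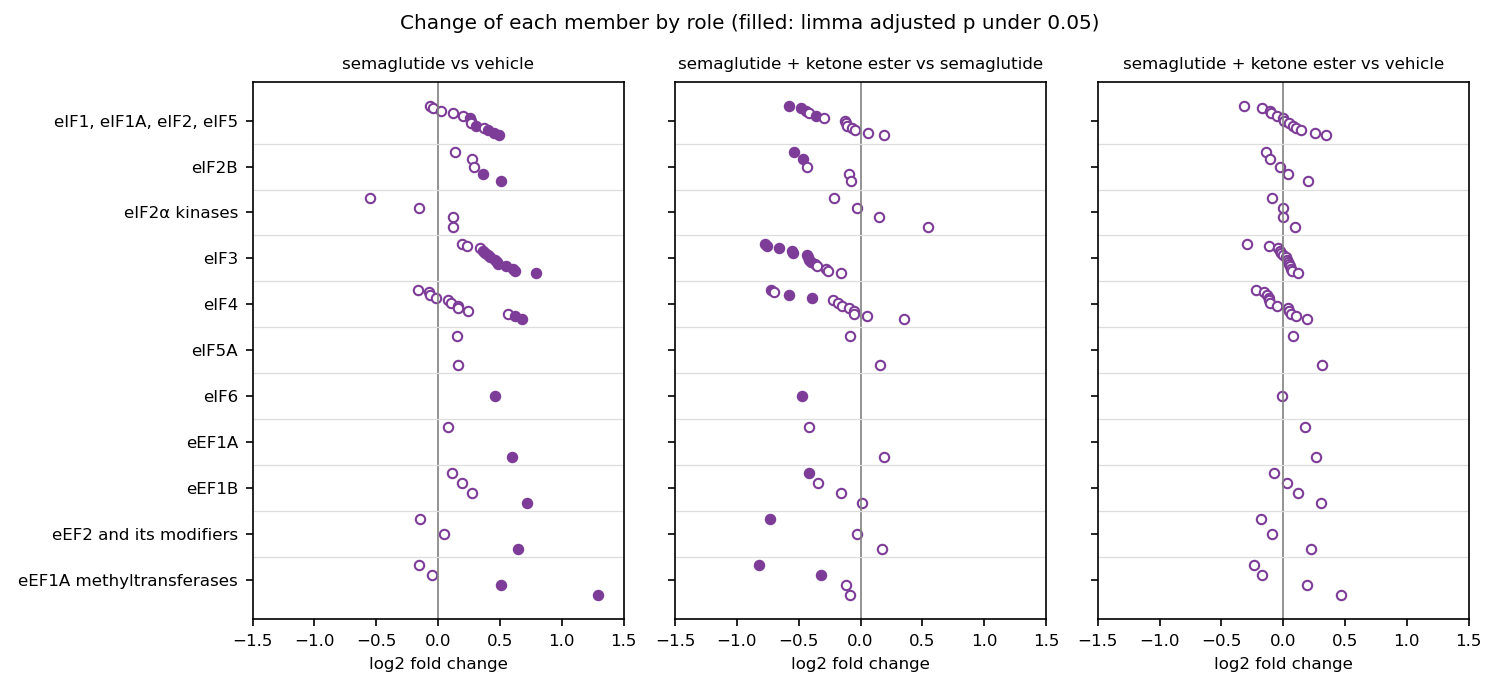
Each point is 1 tested member, placed by its log2 fold change (horizontal axis) and grouped by role (vertical axis), in the 3 comparisons; filled points had a limma adjusted p under 0.05. In the left panel the 27 filled points are all right of 0, in the middle panel the 24 filled points are all left of 0, and the right panel has none.

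The table had been normalized by the submitters, and the normalized totals of semaglutide-treated mice were lower (14876576 to 18100930) than those of vehicle mice (18962089 to 19866025) and ketone ester mice (19614176 to 20640976). When all columns were rescaled to equal totals, the median of all genes moved to 0.17 in semaglutide against vehicle and to -0.24 in ketone ester against semaglutide. The split over all genes tested then became 27.2% higher and 8.01% lower in the first comparison and 5.18% higher and 30.2% lower in the second. Under that scaling 48 members were higher in the first and 49 were lower in the second. The direction of every called member was the same under this scaling and under quantile normalization.

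The members' levels varied among the mice of the semaglutide group. Of the 64 tested members, the share above the highest vehicle mouse was 39.1% in mouse 13, 71.9% in mouse 14, 75% in mouse 15, 54.7% in mouse 16 and 76.6% in mouse 17, while over all genes tested it was 27% to 32.4% in these mice. In ketone ester mice 19, 21 and 22 it was 37.5%, 21.9% and 18.8%, and over all genes tested 20% to 22.8%. Mouse 13 was above the vehicle range for 15 of the 27 members that rose, within it for 8 and below it for 4 (Eef2, Eif1, Eif3e and Eif3j2). Without mouse 13, 38 members were higher with semaglutide and 33 were lower with the ketone ester than with semaglutide alone, and the shares of all genes tested were then 17.9% higher and 17.1% lower. Without mice 13 and 16 the counts were 38 and 36, and the shares of all genes tested 18.3% and 17.5%.

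**Figure D2:**
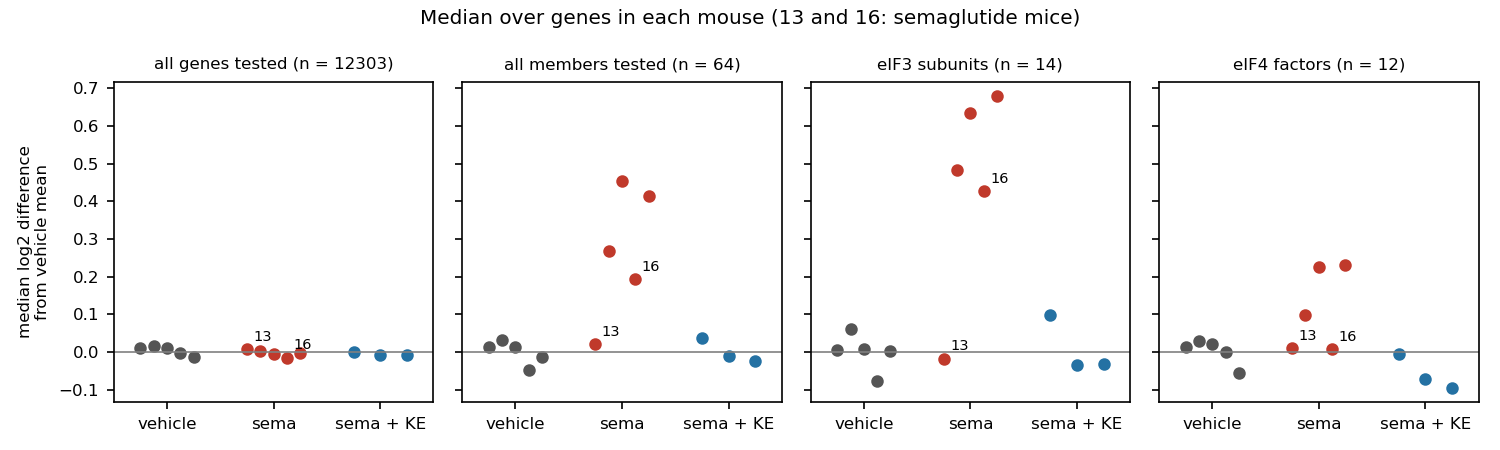
Each point is 1 mouse, placed by the median over genes of its log2 difference from the vehicle mean (vertical axis), for all genes tested, all tested members, eIF3 subunits and eIF4 factors; sema is semaglutide and KE is ketone ester. Over the members, mouse 13 sits at 0.02 and the other semaglutide-treated mice at 0.19 to 0.45, while vehicle and ketone ester mice sit between -0.05 and 0.04.

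eIF3 is the scaffold that recruits the small subunit to messenger RNA, and its genes moved together. Of the 14 tested subunit genes, 11 rose with semaglutide and 10 were lower with the ketone ester than with semaglutide alone. The shares of all genes tested were 12.5% and 10.7%. All 14 had a difference above 0 in the first comparison (median 0.44) and below 0 in the second (median -0.42). Without mouse 13, 14 were called higher and 13 lower, against 17.9% and 17.1% of all genes tested. Without ketone ester mouse 21, 3 were called lower, and the count was 3 without mouse 22 as well. The shares of all genes tested that were lower were then 5.19% and 4.87%. The median over the 14 genes was -0.02 in mouse 13, 0.48, 0.64, 0.43 and 0.68 in mice 14 to 17, and 0.10, -0.03 and -0.03 in the ketone ester mice.

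**Figure D3:**
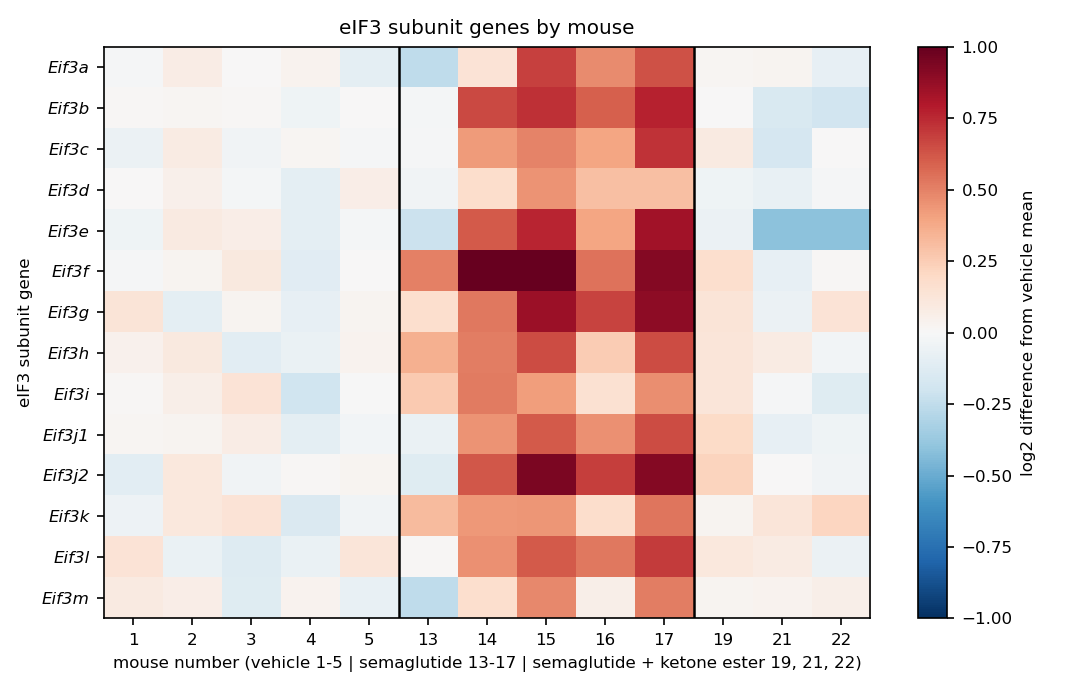
Rows are the 14 eIF3 subunit genes and columns the 13 mice, with black lines between the groups; the colour is the log2 difference from the vehicle mean, red above and blue below. Mice 14 to 17 are red in most rows, with medians of 0.43 to 0.68, while mouse 13 is mixed (median -0.02, from -0.25 for Eif3m to 0.50 for Eif3f) and the ketone ester mice have medians of -0.03 to 0.10.

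Eif3f, a subunit with an MPN domain (gene at chr7:108934417-108942951, plus strand, GRCm38), had normalized counts of 2590, 2665, 2798, 2415 and 2629 in vehicle mice 1 to 5. It had 3708, 5249, 5206, 3818 and 4942 in semaglutide mice 13 to 17, and 2944, 2474 and 2635 in ketone ester mice 19, 21 and 22. Every semaglutide-treated mouse, mouse 13 included, was above every other mouse. The log2 difference was 0.79 ± 0.11 (SE; 1.73-fold, limma adjusted p = 0.000197) against vehicle, and the ketone ester group was at 0.591 of the semaglutide level (-0.76 ± 0.12, adjusted p = 0.00125). Both calls held whichever mouse was left out. Its start lies in the longest of the tracts printed above.

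Eif3b, an RNA-binding core subunit, was tight in vehicle mice with 1784, 1794, 1790, 1719 and 1778 normalized counts. The semaglutide-treated mice had 1745, 2803, 2937, 2678 and 3022, and the ketone ester mice 1778, 1596 and 1554. Mouse 13 was at the vehicle level and the other 4 were far above it. The difference was 0.55 ± 0.12 against vehicle (adjusted p = 0.00588) and -0.66 ± 0.14 for ketone ester against semaglutide (adjusted p = 0.00611), and both calls held whichever mouse was left out.

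Eif3g, a partner of Eif3b, had 842, 722, 787, 727 and 786 normalized counts in vehicle mice, 869, 1111, 1399, 1231 and 1435 in semaglutide-treated mice and 842, 740 and 850 in ketone ester mice. The semaglutide group lay above both others, with mouse 13 closest to them. It rose by 0.62 ± 0.12 (1.54-fold, adjusted p = 0.00212) and differed by -0.56 ± 0.14 with the ketone ester (adjusted p = 0.0121), a call lost without mouse 21 (adjusted p = 0.0677).

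Eif3e had 1634, 1794, 1760, 1576 and 1659 normalized counts in vehicle mice, 1453, 2569, 2857, 2214 and 3005 in semaglutide-treated mice and 1612, 1263 and 1267 in ketone ester mice. Mouse 13 was below the vehicle range, and ketone ester mice 21 and 22 were lower still. The rise of 0.48 ± 0.16 had an adjusted p of 0.0392 and was lost in 9 of the 13 fits without 1 mouse, those without any vehicle mouse and those without mouse 14, 15, 16 or 17 (adjusted p up to 0.106). The difference of -0.77 ± 0.18 with the ketone ester (to 0.585, adjusted p = 0.0102) was lost without mouse 21 or 22 (adjusted p up to 0.0556).

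Eif3j2 and Eif3j1 are near-identical genes for the loosely bound eIF3j, so reads may be split between them in a way the table does not show. Eif3j2 had 2057, 2385, 2162, 2234 and 2266 normalized counts in vehicle mice, 2038, 3407, 4253, 3574 and 4181 in semaglutide-treated mice and 2582, 2229 and 2162 in ketone ester mice. Again mouse 13 was below all vehicle mice while the others were above. The differences were 0.61 ± 0.16 (adjusted p = 0.0126) and -0.54 ± 0.18 (adjusted p = 0.0491), and the second was called in 1 of the 13 fits without 1 mouse, that without mouse 13 (adjusted p up to 0.161 in the others). Eif3j1 differed by 0.42 ± 0.12 (adjusted p = 0.017) and -0.40 ± 0.14 (adjusted p = 0.0498), the second lost in 11 of the 13 fits, all but those without mouse 13 or mouse 19.

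Of the other subunit genes, Eif3h and Eif3i rose without overlap between the groups, Eif3h by 0.49 ± 0.09 (adjusted p = 0.00139) and Eif3i by 0.36 ± 0.09 (adjusted p = 0.00873). Eif3h was lower by -0.43 ± 0.10 with the ketone ester (adjusted p = 0.00928; lost without mouse 22, 0.0551) and Eif3i by -0.37 ± 0.10 (adjusted p = 0.0219; lost without mouse 17, 21 or 22, up to 0.11). Eif3c rose by 0.41 ± 0.11 and Eif3l by 0.46 ± 0.11, and both were lower with the ketone ester (adjusted p = 0.0283 and 0.0372), calls lost without mouse 15, 17, 21 or 22 for Eif3c and without any ketone ester mouse or mouse 14, 15, 16 or 17 for Eif3l. Eif3k rose by 0.38 ± 0.08 and differed by -0.26 ± 0.10 with the ketone ester (adjusted p = 0.069; called without mouse 13 or 16, down to 0.028). Eif3a, the largest subunit, Eif3d, which can bind the cap, and Eif3m were not called, with differences of 0.34 ± 0.14, 0.24 ± 0.08 and 0.19 ± 0.12 against vehicle (adjusted p = 0.0993, 0.0524 and 0.273). Without mouse 13 all 3 were called higher, and Eif3a and Eif3d were then also called lower with the ketone ester.

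Of 13 genes for factors of start codon recognition, 6 rose with semaglutide (Eif1, Eif1a, Eif1b, Eif2d, Eif2s2 and Eif5) and 4 were lower with the ketone ester than with semaglutide alone (Eif1, Eif2s2, Eif5 and Eif5b). The shares of all genes tested were 12.5% and 10.7%. Eif1, which guards against wrong start codons, had 8976 to 9439 normalized counts in vehicle mice, 8881 in mouse 13, 13021 to 15164 in mice 14 to 17 and 8280 to 10248 with the ketone ester. It rose by 0.50 ± 0.13 (adjusted p = 0.0118) and differed by -0.49 ± 0.15 (adjusted p = 0.0324), the second lost without mouse 14, 15, 17, 21 or 22 (up to 0.147). Its paralog Eif1b rose by 0.46 ± 0.11 (adjusted p = 0.0073) but differed by -0.11 ± 0.12 with the ketone ester (adjusted p = 0.568), and its counts of 550, 449 and 423 there were above the vehicle range of 333 to 390. Eif1a rose by 0.40 ± 0.10 without overlap (adjusted p = 0.00773) and was called lower with the ketone ester without mouse 13 (0.0263), while Eif1ax, which encodes nearly the same protein, had -0.07 ± 0.11 (adjusted p = 0.698).

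Of the genes for the subunits of eIF2 itself, Eif2s2 was the one that was called. Eif2s1, which encodes the α subunit that the stress kinases phosphorylate, had 574, 518, 533, 509 and 475 normalized counts in vehicle mice, 519, 558, 655, 603 and 677 in semaglutide-treated mice and 602, 544 and 513 with the ketone ester. These groups overlapped, and the differences were 0.20 ± 0.09 (adjusted p = 0.106; called without mouse 13, 0.028) and -0.12 ± 0.10 (adjusted p = 0.44). Eif2s2, the β subunit, rose by 0.26 ± 0.08 (adjusted p = 0.0279) and was lower by -0.36 ± 0.09 with the ketone ester (adjusted p = 0.0157), in both cases without overlap. The rise of Eif2s2 was lost without vehicle mouse 1, 4 or 5 or mouse 15 or 17 (up to 0.0742), and the lower level without mouse 22 (0.0997). The γ subunit genes Eif2s3x and Eif2s3y, a near-identical pair whose reads may be shared, differed by 0.12 ± 0.09 and -0.04 ± 0.15 against vehicle and were not called.

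Eif5, the GTPase activator that triggers hydrolysis at the start codon, was the member with the lowest level in ketone ester mice relative to vehicle. Its normalized counts were 4420, 4011, 4096, 3866 and 3884 in vehicle mice, 4390, 5287, 4863, 4317 and 5471 in semaglutide-treated mice and 3516, 3255 and 2985 with the ketone ester. All 3 ketone ester mice were below every other mouse. The differences were 0.26 ± 0.08 against vehicle (adjusted p = 0.0361, lost without vehicle mouse 2, 3, 4 or 5 or mouse 14, 15 or 17, up to 0.0979), -0.58 ± 0.10 between the semaglutide groups (to 0.67, adjusted p = 0.00152, called whichever mouse was left out) and -0.32 ± 0.10 for ketone ester against vehicle (adjusted p = 0.224). Eif5b, the GTPase of subunit joining, was not called against vehicle (0.27 ± 0.12, adjusted p = 0.109; called without mouse 13, 0.00664) and was lower by -0.44 ± 0.14 with the ketone ester (adjusted p = 0.0354; lost without mouse 14, 15, 17, 21 or 22). Eif2d, a factor of non-canonical initiation and recycling, rose by 0.31 ± 0.10 (adjusted p = 0.0334; lost in 7 of 13 fits without 1 mouse, those without vehicle mouse 1, 3, 4 or 5 or mouse 14, 15 or 17). Eif2a, an alternative carrier of initiator transfer RNA, and Eif1ad were not called, with 0.37 ± 0.15 and 0.02 ± 0.10.

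Among the genes of eIF2B, the exchange factor for eIF2, Eif2b1 and Eif2b5 rose and Eif2b2, Eif2b3 and Eif2b4 were not called, although all 5 had a difference above 0 (median 0.29). Over all genes tested, 12.5% rose with semaglutide. Eif2b5, which encodes the catalytic ε subunit, had 1063, 999, 1042, 1038 and 1064 normalized counts in vehicle mice, 1107, 1405, 1540, 1211 and 1491 in semaglutide-treated mice and 1014, 940 and 955 with the ketone ester. The semaglutide group lay above both others without overlap. It rose by 0.36 ± 0.09 (1.29-fold, adjusted p = 0.00851) and was lower by -0.47 ± 0.10 with the ketone ester (to 0.723, adjusted p = 0.00648), and both calls held whichever mouse was left out. Eif2b1, the regulatory α subunit, rose by 0.51 ± 0.13 (adjusted p = 0.0131) with mouse 13 inside the vehicle range, and differed by -0.54 ± 0.16 with the ketone ester (adjusted p = 0.0261; lost without mouse 15 or 17 or any ketone ester mouse, up to 0.101).

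None of the 4 eIF2α kinase genes was called by limma in any comparison. Eif2ak3, or PERK, the sensor of unfolded proteins in the endoplasmic reticulum, had 80.1, 85.5, 97.8, 102 and 94.3 normalized counts in vehicle mice, 83.2, 76.6, 85.5, 98.1 and 70.9 in semaglutide-treated mice and 89.9, 93.0 and 91.3 with the ketone ester. Eif2ak4, or GCN2, the sensor of amino acid shortage, had 129, 137, 116, 119 and 112 in vehicle mice, 123, 94.7, 170, 145 and 146 in semaglutide-treated mice and 152, 118 and 124 with the ketone ester. Neither gene separated the groups, with -0.15 ± 0.12 (adjusted p = 0.364) and 0.12 ± 0.14 (adjusted p = 0.573) against vehicle. Eif2ak1, or HRI, differed by 0.12 ± 0.07 (adjusted p = 0.212) against vehicle. Eif2ak2, or PKR, the sensor of double-stranded RNA, went the other way from most members, with 68.7, 72.2, 90.3, 116 and 61.7 in vehicle mice, 74.5, 42.8, 46.7, 67.0 and 47.0 in semaglutide-treated mice and 69.2, 84.6 and 86.5 with the ketone ester. Its differences were -0.55 ± 0.20 (adjusted p = 0.0553) and 0.55 ± 0.23 (adjusted p = 0.104). The first was called without vehicle mouse 5, mouse 13 or mouse 16 (adjusted p down to 0.0159) and the second without mouse 13 (0.0339).

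Of the 12 tested eIF4 genes, Eif4a1 and Eif4g3 rose with semaglutide, and these and Eif4a3 were lower with the ketone ester than with semaglutide alone. Over all genes tested, 12.5% rose in the first comparison and 10.7% were lower in the second. The share of eIF4 genes that rose was near that of all genes. Eif4e, the cap-binding protein, had 1277, 1244, 1343, 1333 and 1085 normalized counts in vehicle mice, 1516, 1240, 1087, 826 and 1042 in semaglutide-treated mice and 1301, 1507 and 1491 with the ketone ester. The groups overlapped, with -0.16 ± 0.13 (adjusted p = 0.39) against vehicle and 0.35 ± 0.15 (adjusted p = 0.111) for ketone ester against semaglutide; without mouse 13, the highest of all, the second was called higher (adjusted p = 0.00912). Eif4g1, the main scaffold, had 13506, 14134, 13490, 13444 and 13083 in vehicle mice, 13560, 14490, 15358, 13475 and 14692 in semaglutide-treated mice and 13358, 12093 and 12332 with the ketone ester. It differed by 0.08 ± 0.07 (adjusted p = 0.448) and -0.18 ± 0.08 (adjusted p = 0.133), although every ketone ester mouse was below every semaglutide-treated mouse.

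Eif4g3, its paralog, rose. It had 4471, 4919, 4780, 4822 and 4242 normalized counts in vehicle mice, 5142, 6773, 8932, 7325 and 8259 in semaglutide-treated mice and 5321, 4415 and 4682 with the ketone ester. All semaglutide-treated mice were above all vehicle mice, and mouse 13 was below ketone ester mouse 19. The differences were 0.63 ± 0.13 (1.54-fold, adjusted p = 0.00286) and -0.58 ± 0.14 (to 0.669, adjusted p = 0.0128), the second lost without mouse 21 or 22 (up to 0.0689). Eif4g2, a scaffold without a cap-binding partner, differed by 0.16 ± 0.09 (adjusted p = 0.193).

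Eif4a1, the helicase that unwinds leaders (chr11:69666936-69672423, minus strand), had 463, 433, 391, 315 and 426 normalized counts in vehicle mice. It had 450, 621, 681, 764 and 759 in semaglutide-treated mice and 402, 383 and 380 with the ketone ester. Mouse 13 was within the vehicle range, and mice 14 to 17 were above it. The differences were 0.68 ± 0.14 (1.60-fold, adjusted p = 0.00348) and -0.73 ± 0.16 (to 0.604, adjusted p = 0.00707), and both calls held whichever mouse was left out. Its paralog Eif4a2 had 4842, 4893, 5071, 5056 and 4868 in vehicle mice, 4086, 4706, 7233, 5869 and 6357 in semaglutide-treated mice and 4913, 5332 and 5755 with the ketone ester. Mice 13 and 14 were below the narrow vehicle range and the other 3 above it, and the differences were 0.16 ± 0.13 (adjusted p = 0.376; called without mouse 13, 0.0494) and -0.06 ± 0.15 (adjusted p = 0.823).

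Eif4b, which stimulates the helicase, had the widest spread of the group, with 5355 to 6073 normalized counts in vehicle mice, 4304 in mouse 13, 8074, 11430, 8863 and 12719 in mice 14 to 17 and 4690 to 6030 with the ketone ester. It was not called by limma (0.57 ± 0.22, adjusted p = 0.0684; -0.70 ± 0.25, adjusted p = 0.0619), and was called in both comparisons without mouse 13 (adjusted p = 0.000144 and 0.000158) and by edgeR and DESeq2. Eif4a3, a helicase of the exon junction complex, was lower with the ketone ester (-0.40 ± 0.13, adjusted p = 0.0427) and not called against vehicle (0.24 ± 0.11, adjusted p = 0.125; called without mouse 13, 0.0464). The call with the ketone ester was lost in 8 of the 13 fits without 1 mouse, those without vehicle mouse 4 or 5, without mouse 15, 16 or 17, or without any ketone ester mouse. Eif4h, Eif4e2, Eif4e3 and Eif4enif1 were not called in any comparison, with Eif4h at -0.07 ± 0.06 against vehicle.

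eIF5A eases the formation of difficult peptide bonds and carries the modified lysine hypusine. Eif5a had 5851, 5750, 5811, 4944 and 5442 normalized counts in vehicle mice, 6788, 6338, 6317, 5389 and 6343 in semaglutide-treated mice and 6342, 5662 and 5592 with the ketone ester. All semaglutide-treated mice but mouse 16 were above the vehicle range, yet the difference of 0.16 ± 0.08 was not called (adjusted p = 0.152; called without mouse 16, 0.0455). Eif5a2 differed by 0.15 ± 0.24 and was not called.

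Eif6, which keeps the large ribosomal subunit from joining too early, separated the semaglutide group from both others, while vehicle and ketone ester mice overlapped. It had 452, 465, 476, 428 and 446 normalized counts in vehicle mice, 586, 674, 625, 593 and 654 in semaglutide-treated mice and 527, 405 and 425 with the ketone ester. Each semaglutide-treated mouse was above every other mouse, mouse 13 included. The differences were 0.46 ± 0.08 (1.38-fold, adjusted p = 0.00136) and -0.48 ± 0.10 (to 0.719, adjusted p = 0.00391), and both calls held whichever mouse was left out.

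Of the elongation factors, Eef1b2, the exchange factor subunit that recharges eEF1A (chr1:63176825-63180486, plus strand), had the lowest p of all members. Its normalized counts were 1739, 1756, 1496, 1607 and 1736 in vehicle mice, 2583, 2884, 3028, 2354 and 2937 in semaglutide-treated mice and 1979, 2130 and 2054 with the ketone ester. The 3 groups did not overlap, with the ketone ester mice between the others. It rose by 0.72 ± 0.08 (1.65-fold, adjusted p = 5.95e-05), was lower by -0.42 ± 0.09 with the ketone ester (to 0.748, adjusted p = 0.00753), and was at 0.30 ± 0.09 in ketone ester against vehicle mice (adjusted p = 0.235). The calls in the first and second comparison held whichever mouse was left out. Part of its exon sequence lies opposite Ndufs1, whose mean normalized count was 5647, and whether the counting used strand is not given in the sources used here. The partners Eef1d and Eef1g, and Eef1e1, a member of the tRNA synthetase complex, were not called, with 0.19 ± 0.12, 0.12 ± 0.09 and 0.27 ± 0.14 against vehicle; Eef1d was called higher without mouse 13 (adjusted p = 0.0213).

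Eef2, the translocase that moves the ribosome along (chr10:81176631-81182498, plus strand), had 28601, 29812, 26757, 25731 and 29832 normalized counts in vehicle mice. It had 23918, 44664, 55544, 46370 and 59216 in semaglutide-treated mice and 30487, 23155 and 26128 with the ketone ester. Mouse 13 was below all vehicle mice, and the other 4 were above every remaining mouse. The differences were 0.64 ± 0.20 (1.56-fold, adjusted p = 0.0273; lost without vehicle mouse 3 or 4 or mouse 15 or 17, up to 0.0758) and -0.73 ± 0.23 (to 0.602, adjusted p = 0.035; lost without mouse 14, 15, 16, 17, 21 or 22, up to 0.141). Eef2k, the kinase that inhibits eEF2, had 1943, 2020, 1798, 1417 and 1730 in vehicle mice, 1993, 1809, 1302, 1177 and 1871 in semaglutide-treated mice and 1812, 1667 and 1264 with the ketone ester. The groups overlapped throughout (-0.15 ± 0.16, adjusted p = 0.516; -0.03 ± 0.18, adjusted p = 0.928). Eef2kmt, a methyltransferase of eEF2, was not called (0.05 ± 0.11).

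Eef1akmt4, a lysine methyltransferase of eEF1A (chr16:20611593-20619011, plus strand), had the largest change of all members. It had 36.6, 27.7, 22.3, 34.4 and 34.9 normalized counts in vehicle mice, 54.2, 94.7, 87.8, 69.9 and 83.5 in semaglutide-treated mice and 27.9, 51.9 and 54.1 with the ketone ester. Every semaglutide-treated mouse was above every other mouse, mouse 13 by a narrow margin. The differences were 1.29 ± 0.22 (2.45-fold, adjusted p = 0.00105; called whichever mouse was left out) and -0.82 ± 0.26 (to 0.565, adjusted p = 0.0348; lost without mouse 14, 15, 17, 19 or 21, up to 0.171). Its exons overlap Alg3 on the opposite strand (mean normalized count 222) and Gm49333 on the same strand (3.80). Eef1aknmt, which methylates eEF1A at its N terminus and at a lysine, rose by 0.51 ± 0.09 without overlap (1.43-fold, adjusted p = 0.000955) and was lower by -0.32 ± 0.10 with the ketone ester (adjusted p = 0.0358; lost without mouse 15 or 17 or any ketone ester mouse, up to 0.119). Eef1akmt1 and Eef1akmt2 were not called (-0.05 ± 0.14 and -0.15 ± 0.17).

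**Figure D4:**
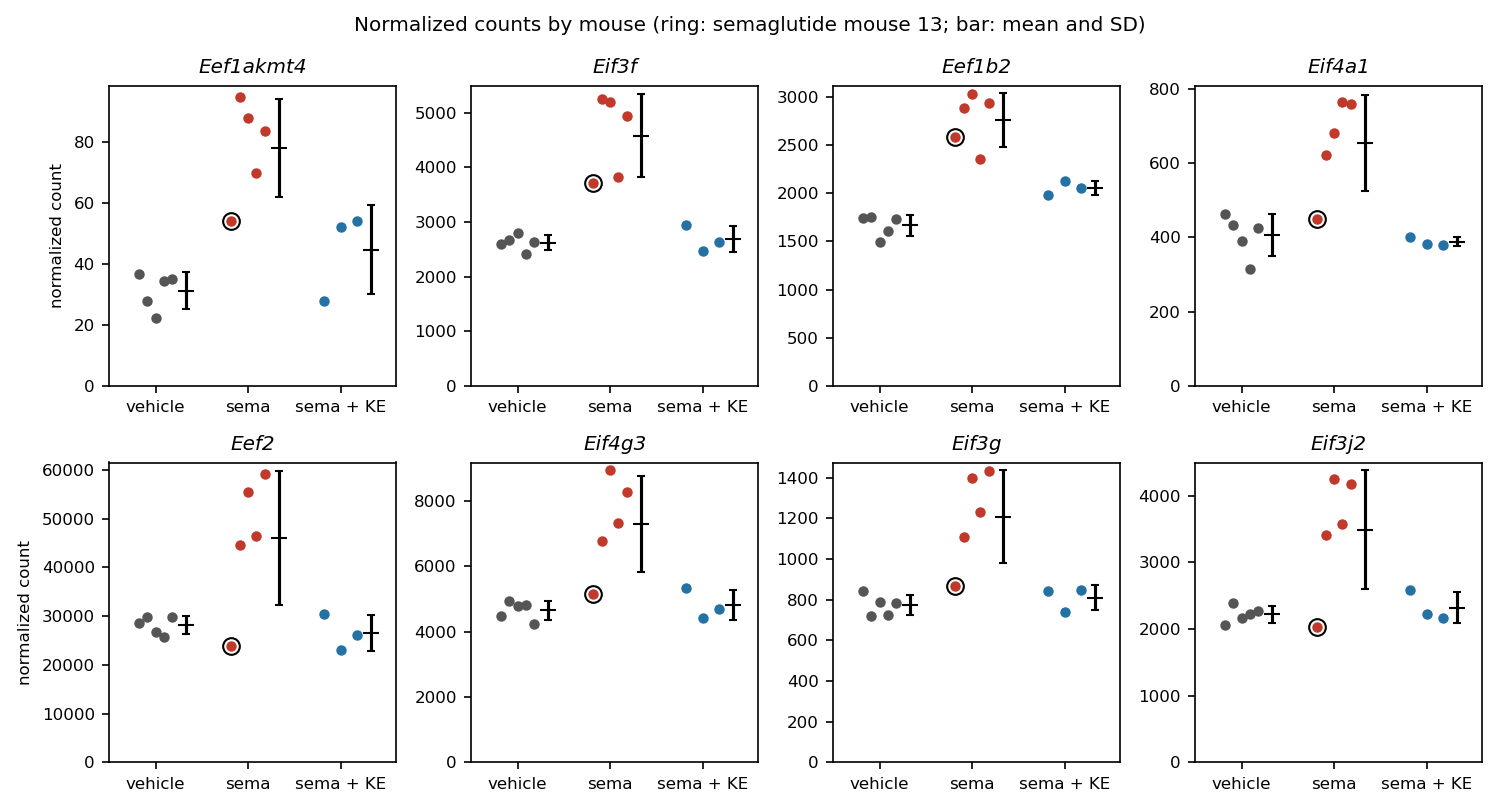
Normalized counts (vertical axes, from 0) of the 8 members with the largest called change in semaglutide against vehicle mice, with 1 point per mouse, a ring around mouse 13 and a bar for the mean and SD of each group; sema is semaglutide and KE is ketone ester. Mouse 13 is above every vehicle mouse for Eef1akmt4, Eif3f, Eef1b2, Eif4g3 and Eif3g, within their range for Eif4a1 and below it for Eef2 and Eif3j2.

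Eef1a1 (chr9:78478449-78489151, minus strand), the form of eEF1A in most tissues, had 3269, 3901, 3681, 3913 and 4529 normalized counts in vehicle mice. It had 4279, 5151, 5351, 8601 and 6499 in semaglutide-treated mice and 4443, 4402 and 4190 with the ketone ester. Mouse 16, with the adipocyte markers, was the highest and mouse 13 was within the vehicle range. Eef1a1 rose by 0.60 ± 0.15 (1.51-fold, adjusted p = 0.0105) and differed by -0.42 ± 0.17 with the ketone ester (adjusted p = 0.102; called without mouse 13, 0.0146), and its processed pseudogenes make its count less certain. Eef1a2 (chr2:181147653-181157014, minus strand), the muscle form, had 26851, 29236, 26697, 28092 and 28543 in vehicle mice, 28350, 32232, 31795, 24026 and 31959 in semaglutide-treated mice and 31387, 35024 and 34444 with the ketone ester. All ketone ester mice were above all vehicle mice, but the differences of 0.08 ± 0.10, 0.19 ± 0.11 and 0.27 ± 0.11 in the 3 comparisons were not called (adjusted p = 0.58, 0.264 and 0.42).

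The balance within paralog pairs was compared as a log2 ratio of normalized counts per mouse, with two-sided exact permutation tests adjusted over 9 tests. The ratio of Eef1a2 to Eef1a1 was 3.04, 2.91, 2.86, 2.84 and 2.66 in vehicle mice, 2.73, 2.65, 2.57, 1.48 and 2.30 in semaglutide-treated mice and 2.82, 2.99 and 3.04 with the ketone ester. The vehicle mean was 2.86 ± 0.14 (SD, n = 5) and the semaglutide mean 2.34 ± 0.51, with mouse 16 lowest by far; the exact p was 0.0159 and the adjusted p 0.0536. The difference of -0.52 became -0.30 without mouse 16. The ketone ester mean was 2.95 ± 0.12, and its difference of 0.61 from semaglutide had an exact p of 0.0714 (adjusted p = 0.161), and became 0.39 without mouse 16.

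The ratio of the helicase paralogs Eif4a2 to Eif4a1 was 3.38, 3.49, 3.69, 4.00 and 3.51 in vehicle mice, 3.18, 2.92, 3.41, 2.94 and 3.06 in semaglutide-treated mice and 3.61, 3.80 and 3.92 with the ketone ester. Only mouse 15 in the semaglutide group reached the vehicle range. The means were 3.62 ± 0.24, 3.10 ± 0.20 and 3.77 ± 0.16. Semaglutide differed from vehicle by -0.51 (exact p = 0.0159) and ketone ester from semaglutide by 0.67 (exact p = 0.0179, the smallest that 3 against 5 mice can give), both with an adjusted p of 0.0536, so neither passed the threshold of 0.05. Ketone ester and vehicle mice differed by 0.16 (exact p = 0.339). The ratio of Eif5a2 to Eif5a had exact p-values of 0.96, 0.375 and 0.536 in the 3 comparisons. Read per kilobase, Eif4a2 was at 927 and Eif4a1 at 93.6 normalized counts per kilobase in vehicle mice.

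**Figure D5:**
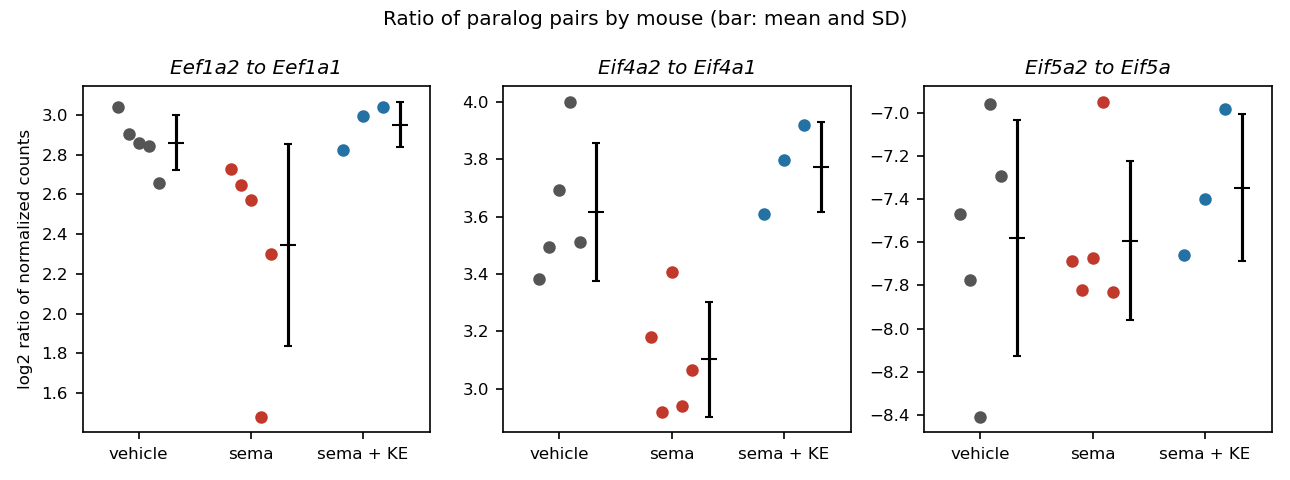
Each point is the log2 ratio of the normalized counts of a paralog pair in 1 mouse (vertical axes, which do not start at 0), with bars for the mean and SD of each group; sema is semaglutide and KE is ketone ester. The semaglutide group has the lowest mean for Eef1a2 to Eef1a1 (2.34) and for Eif4a2 to Eif4a1 (3.10), and the groups overlap for Eif5a2 to Eif5a.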

How the data were processed

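Gastrocnemius RNA of 13 mice was made into stranded messenger RNA libraries and sequenced as paired 59-base reads. The authors deposited 1 table of normalized counts, a signal scaled per library; reads had been aligned to mm10 with the DRAGEN RNA application, the submitters' processing notes also name DESeq2 without its role, and the counter, its use of strand, the annotation and the scaling are not given in the sources used here. In the deposited values 100% were whole multiples (tolerance 0.01) of 1 value per library, so reads were recovered; the table has 0 columns of other samples. Members and gene lists were chosen with earlier results of these data known.

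Values were tested as log2(normalized count + 1) for the 12303 of 21868 genes with a mean of at least 10, with limma 3.58.1 in R 4.3.3 (3 groups in 1 model, variance trend, Benjamini-Hochberg over all genes, threshold 0.05). Fold changes are on that scale, which understates those of low genes. Labels put each library in its own mouse. On simulated data for semaglutide against vehicle (12303 genes, 100 changed at each size), 46% of 1.5-fold and 72% of 2-fold changes were recovered, with 0 wrong signs and 4 false calls. Each gene was drawn independently there, so a shift of 1 mouse across many genes, as in mouse 13, was not simulated. Paralog ratios were tested by exact permutation (scipy 1.17.1). Values in every mouse were given for the members with the largest called changes (8 in semaglutide against vehicle, 6 in ketone ester against semaglutide) and for a fixed set of 15 key factors; others in which every value is printed, such as Eif5 and Eif2ak2, were chosen after their values were seen, as were the 3 promoter motifs. Alternatives were other pseudocounts (0.5 and 8), filters (none, or a mean of 50), equal totals, quantile normalization, array weights, no variance trend, 2 groups only, edgeR 4.0.16 and DESeq2 1.42.0 on recovered reads, a fold of 1.5 added, the criterion in the study's methods, and leaving out each mouse; the fit without variance trend and that without mice 13 and 16 were added after seeing the data. Gene positions come from GENCODE M21 (GRCm38), which held 65 of the 66 members, 15 of them sharing exon sequence with another gene in the table; python 3.11.15, pandas 2.3.3 and matplotlib 3.10.9 were used.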

Additional observations from a re-analysis of the deposited data

Results flagged for a closer look

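In 112 groups of 5 mice, the highest or lowest value was compared with the nearest other value of its group, as a share of the group's range; a share over 0.71 sets a mouse apart, which chance does in about 1 in 20 groups (5.6 here), and 5 values met it. Eif3b was lowest in semaglutide mouse 13, with 1745 normalized counts against 2678 in the next mouse (share 0.731), and lowest in vehicle mouse 4, with 1719 against 1778 (0.789), a step of little size in a narrow group. The ratio of Eif5a2 to Eif5a was highest in semaglutide mouse 16, at -6.95 on the log2 scale against -7.67 (0.82). Among genes that are not members, Ppp1r15a, a subunit of the eIF2α phosphatase, was lowest in mouse 13 with 407 normalized counts against 1279 (0.876), and Abce1, a ribosome recycling factor, was highest in vehicle mouse 2 with 1262 against 1117 (0.73). The causes were not tested.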

How the results depend on the processing

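No paired analysis was possible because the groups share no mouse numbers. Of the counts and ratios outside leave-one-out, 92 stayed close to their values and 21 moved. The count of members that rose with semaglutide was 48 with equal totals, 10 by the criterion in the study's methods and 9 with a fold of 1.5 added; that of members that fell was 1 with array weights, DESeq2 or without mice 13 and 16. Between the semaglutide groups, 49 were lower with equal totals, 37 with array weights and 7 with only the 2 groups. The shares of all genes tested were 30.2%, 19% and 5.02%. By the methods' criterion 9 were lower, against 4.94% of all genes tested, and with the fold added 6 were lower. With array weights or without mice 13 and 16, 2 were higher, against 17.1% and 15.9% of all genes tested. Ketone ester against vehicle gave 1 higher and 1 lower with array weights, against 0.975% and 1.61% of all genes tested. Without mice 13 and 16 it also gave 1 higher and 1 lower, against 0.797% and 1.16%. With only the 2 groups it gave 1 lower, against 1.32%. These counts of 1 lie near those shares. The F test called 51 with equal totals, 44 with array weights and 42 without mice 13 and 16. Without each mouse in turn, semaglutide gave 22 to 38 higher and 0 to 1 lower. Over all genes tested, 8.92% to 17.9% were higher and 10.4% to 19.6% lower in these fits. Ketone ester against semaglutide gave 9 to 33 lower and 0 to 2 higher, against 4.87% to 17.1% and 4.46% to 16.4%. Ketone ester against vehicle gave 0 in either direction, and the F test called 17 to 37. The share of all genes called by the F test is not given for these settings. The ratio of Eef1a2 to Eef1a1 ranged from -0.61 to -0.30 (semaglutide against vehicle) and 0.39 to 0.70 (ketone ester against semaglutide), that of Eif4a2 to Eif4a1 from -0.59 to -0.42 and 0.60 to 0.75, and that of Eif5a2 to Eif5a from -0.22 to 0.14 and 0.06 to 0.41. Signs turned for genes not called with the deposited scaling. With equal totals, ketone ester against semaglutide became -0.050 for Eef1a2, -0.23 for Eef1g and -0.086 for Eif2ak3. Under that scaling Eef1g was called lower (limma adjusted p = 0.0496). Semaglutide against vehicle became 0.025 for Eef2k, 0.021 for Eif2ak3 and 0.012 for Eif4e. Quantile normalization gave 0.025 for Eef2k in ketone ester against semaglutide, and leaving out mice 13 and 16 gave -0.033 for Eef1g. Leaving out single mice, ketone ester against semaglutide ranged from -0.049 to 0.051 for Eef1g, -0.14 to 0.12 for Eef2k, -0.15 to 0.059 for Eif2ak4 and -0.17 to 0.040 for Eif4a2. Why these moved was not tested, beyond the fewer mice or the added fold. With 5, 5 and 3 mice, 46% of simulated 1.5-fold changes were recovered for semaglutide against vehicle, in data without shifts of a mouse across genes. Low members such as Eif5a2 have wide errors.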

Other observations

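Genes that act beside the translation factors were counted in the same limma fit, from lists chosen with earlier results of these data known. Of 14 tested ATF4 target and eIF2α phosphatase genes, 4 rose with semaglutide and 4 were lower with the ketone ester than with semaglutide alone, with 0 called the other way, against 12.5% and 10.7% of all genes tested. Atf4 itself had 2862, 2783, 2508, 2437 and 2950 normalized counts in vehicle mice, 2917, 5013, 4214, 4191 and 3944 in semaglutide mice 13 to 17 and 2374, 2334 and 2714 with the ketone ester, so that mouse 13 was within the vehicle range and the others above it (0.56 ± 0.12, adjusted p = 0.00398; -0.69 ± 0.14, adjusted p = 0.00382). Of 23 genes of the mTORC1 pathway and the eIF4E-binding proteins, 5 rose and 2 fell with semaglutide, and 8 were lower and 1 was higher with the ketone ester. Over all genes tested, 12.5% rose and 13.9% fell in the first comparison, and 10.7% were lower and 10% higher in the second. Eif4ebp1, the inhibitor of eIF4E that the members leave out, had 554, 621, 448, 501 and 621 normalized counts in vehicle mice, 772, 3467, 4047, 4713 and 5033 in semaglutide-treated mice and 737, 627 and 689 with the ketone ester. Its difference of 2.48 ± 0.39 (adjusted p = 0.000577) against vehicle was larger than that of any member.

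The mitochondrial translation factors went the other way from the cytosolic ones. Of 10 tested genes, 6 fell with semaglutide and 5 were higher with the ketone ester than with semaglutide alone, with 0 called in the opposite directions, against 13.9% and 10% of all genes tested. With equal totals 1 fell and 2 were higher, against 8.01% and 5.18% of all genes tested. Without ketone ester mouse 21 or 22 the count of 5 became 2 and 1, against 5.09% and 4.46%. A count of 1 of 10 lies near these shares. Gfm1, the mitochondrial elongation factor that matches eEF2 in role, had 2028, 1937, 2058, 2365 and 2148 normalized counts in vehicle mice, 1694, 1511, 1533, 1327 and 1478 in semaglutide-treated mice and 2022, 2308 and 2647 with the ketone ester. The semaglutide group was below both others in every mouse, mouse 13 included (-0.48 ± 0.09, adjusted p = 0.0018; 0.62 ± 0.10, adjusted p = 0.00146). Of 13 tested genes of poly(A) binding, termination and recycling, 4 rose and 3 were lower with the ketone ester, among them the release factor Etf1 (0.45, adjusted p = 0.00282; -0.56, adjusted p = 0.00236). Of 12 genes that make hypusine, diphthamide and selenocysteine, 2 rose and 2 were lower. Over all genes tested, 12.5% rose with semaglutide and 10.7% were lower with the ketone ester than with semaglutide alone. A count of 2 of 12 lies near these shares. In ketone ester against vehicle mice limma called 0 genes of these 5 lists.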
